A study of Mus musculus with 9 samples.

Results

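The ErbB system of adult neural stem cells (NSCs) was described through 10 genes, chosen by name and role out of the 48526 genes counted: the receptors Egfr, Erbb2, Erbb3 and Erbb4, the ligands Hbegf, Tgfa, Areg and Ereg, and the inhibitors Lrig1 and Errfi1. This choice was made with earlier results of these data known. The cells were NSCs of the subependymal zone (SEZ), the germinal layer of the lateral ventricles, taken from adult C57BL/6 wild-type mice aged 2 to 4 months and grown as neurospheres with EGF and FGF. Differentiation was triggered by depriving cells on an adhesive substrate of EGF, with FGF still present, and RNA was sequenced at 0, 1 and 6 h. Cells fixed at such early times were first seeded in medium with EGF, and the paper does not state this separately for the RNA samples. Each time point had 3 libraries, numbered 1 to 3, and no group carried a transgene, a deletion or a drug. The comparisons address how the genes that receive, supply and restrain EGF signals are transcribed once EGF itself is taken away. The cells had been expanded in culture, and it is not given in the labels what ties equally numbered libraries together or whether they came from separate animals, so the p-values measure only the spread between these samples.

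ErbB receptors are tyrosine kinases that pair with each other when a ligand binds. The EGF-like ligands are made as membrane-bound precursors and released by ADAM proteases, and the signal runs through adaptors, RAS and the ERK and PI3K kinases to early response genes. Receptors are then withdrawn by ubiquitination and endocytosis, and several inhibitors are themselves induced by the signal. In the adult SEZ, EGFR marks activated NSCs and transit amplifying progenitors, and EGF with FGF keeps these cells proliferating in neurospheres.

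The libraries held between 65871454 and 105592597 counts, and 18858 genes passed the filter on low counts. All 10 markers of neural stem and progenitor cells had a mean of at least 1 CPM (counts scaled to a common library size). For microglia it was 0 of 6 markers, with a summed level of 0.122 to 0.526 CPM, and for endothelial cells 1 of 5, with sums of 2.01 to 15.9 CPM. Markers of oligodendrocyte progenitors, of which 4 of 6 had a mean of at least 1 CPM, summed to 1691 to 2289 CPM at 0 h and to 2164 to 2512 CPM at 6 h. Olig1 and Olig2 made up most of these sums, with means of 1228 and 633 CPM at 0 h, while Sox10 and Gpr17 had 0.0893 and 0.833 CPM. A mean of at least 1 CPM was also reached by 6 of 8 markers of neuroblasts and neurons and 6 of 6 of astrocytes. The same held for 2 of 6 markers of oligodendrocytes, 2 of 4 of ependymal cells and 2 of 4 of pericytes. Among the neuronal markers, Map2 had a mean of 1133 CPM at 0 h, while Dcx and Stmn2 had 1.08 and 0.331 CPM. Among the astrocyte markers, Aldoc, Aldh1l1 and Gja1 had 572, 140 and 135 CPM at 0 h. Gfap, Aqp4 and S100b had 1.31, 1.48 and 1.88 CPM. The pericyte markers summed to 51.9 to 95.1 CPM at 0 h and 32.4 to 45.8 CPM at 6 h. Acta2 made up most of these sums, with means of 77.2 CPM at 0 h and 36.6 CPM at 6 h. Rgs5 went from a mean of 1.99 to 1.18 CPM, while Pdgfrb went the other way, from 0.165 to 2.12 CPM. The part of these cell types in the levels of the ErbB genes was not tested. In these bulk samples, fewer cells of a type and less RNA per cell cannot be told apart.

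Lrig1 and Egfr stood at the top of the 10 genes at 0 h when levels were set per kb of exon, the only scale on which levels of different genes are compared here. Lrig1 had 130 ± 32.2 CPM per kb (SD, n = 3) and Egfr had 58.2 ± 6.22 CPM per kb. Hbegf, the precursor of heparin-binding EGF-like growth factor, came next at 17.1 ± 2.78 CPM per kb. The ranges of these 3 genes did not overlap. Erbb2 at 6.86 ± 1.44 and Errfi1 at 5.56 ± 1.68 CPM per kb had overlapping ranges, so their order was not resolved. The same held for Erbb4 at 3.05 ± 0.163, Areg at 1.98 ± 1.33 and Tgfa at 1.48 ± 0.449 CPM per kb, each of which overlapped its neighbour in the order. Erbb3 at 0.0349 ± 0.0251 and Ereg at 0.00572 ± 0.00725 CPM per kb were below all others in every library at 0 h.

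**Figure D1:**
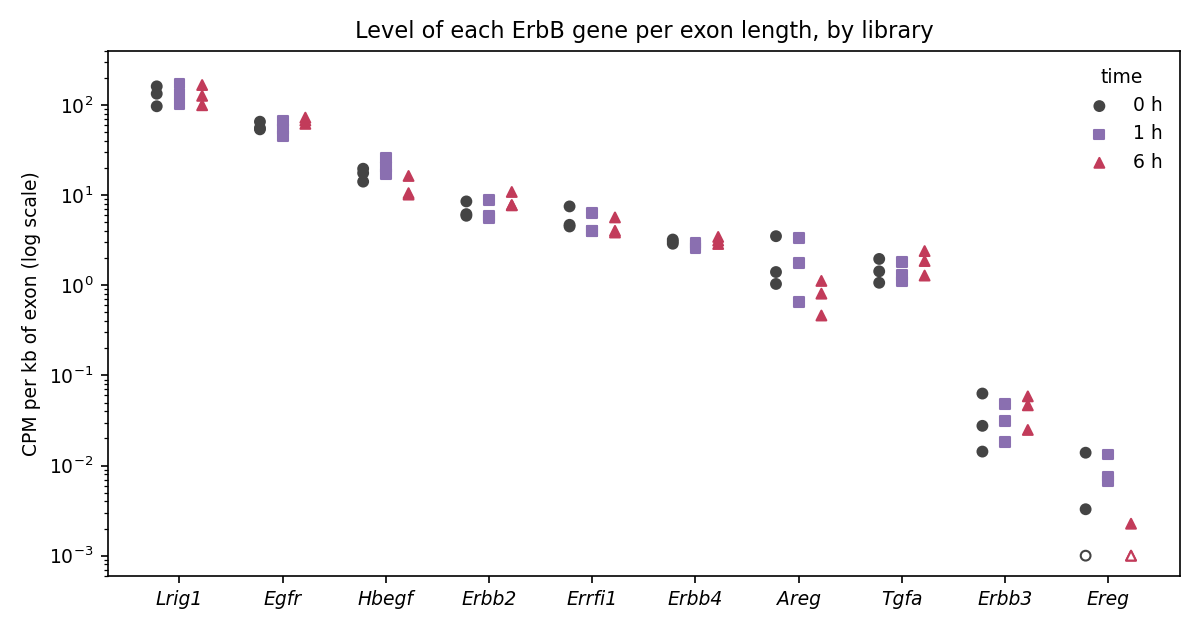
Level of each ErbB gene in CPM per kb of exon on a log scale, 1 point per library, with circles for 0 h, squares for 1 h and triangles for 6 h; open symbols at the bottom of the axis are libraries with 0 counts. Lrig1 and Egfr lie above the other genes in all 9 libraries, and Erbb3 and Ereg lie below them.

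A single gene supplied most of the transcript among the receptors and among the ligands chosen here. Egfr made up between 79.8% and 88.3% of the summed receptor level per kb in the 9 libraries, and its mean share was 85.3% at 0 h, 84.9% at 1 h and 84.9% at 6 h. Erbb2 held 10.1% ± 2.27 at 0 h and 11.1% ± 2.09 at 6 h, and Erbb4 held 4.50% ± 0.358 and 3.99% ± 0.401 (SD, n = 3). Among the ligands Hbegf, Tgfa, Areg and Ereg, Hbegf took between 76.6% and 92.0% of the summed level per kb. Egf, the neuregulins and the other ligands of the pathway are not in this sum. The mean share of Tgfa was 7.48% at 0 h and 12.9% at 6 h, and the share of Areg was 9.45% and 5.65%. These shares of the ligands were not tested, and their ranges at 0 h and 6 h overlapped for each of Tgfa, Areg and Hbegf.

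The sequence upstream of the transcription start is shown for the most abundant receptor and for Areg and Errfi1, a ligand and an inhibitor that were both lower at 6 h than at 0 h in all 3 numbers, as Hbegf also was. RefSeq start sites gave windows of 250 bases for 7 of the 10 genes, all but Erbb3, Hbegf and Ereg. Capitals mark matches to 3 motifs searched on both strands, the cAMP response element TGACGTCA, the TATA box TATAAA and the GC box GGGCGG, which reads CCGCCC on the other strand. All sequences are from the plus strand of GRCm38.p6, 5′ to 3′, and end 1 base before the RefSeq start.
Areg, chr5:91139349-91139598: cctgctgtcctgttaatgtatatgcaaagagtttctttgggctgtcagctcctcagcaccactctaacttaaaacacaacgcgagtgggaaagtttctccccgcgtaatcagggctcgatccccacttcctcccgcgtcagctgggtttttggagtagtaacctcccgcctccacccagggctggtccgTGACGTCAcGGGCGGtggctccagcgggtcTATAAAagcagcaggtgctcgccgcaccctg
Errfi1, chr4:150854950-150855069: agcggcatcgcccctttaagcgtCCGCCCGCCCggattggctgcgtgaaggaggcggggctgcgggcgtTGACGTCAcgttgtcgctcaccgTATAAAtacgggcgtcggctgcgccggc
Egfr, chr11:16751953-16752202: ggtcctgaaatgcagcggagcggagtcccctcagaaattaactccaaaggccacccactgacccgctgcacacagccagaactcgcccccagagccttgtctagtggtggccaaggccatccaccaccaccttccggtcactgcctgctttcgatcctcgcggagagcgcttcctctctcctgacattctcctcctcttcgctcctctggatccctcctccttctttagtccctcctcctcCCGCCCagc
For Errfi1 the 120 bases without an annotated exon are printed, and neighbouring GC boxes in it overlap.

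The cAMP response element stood 61 to 54 bases before the start of Areg and 51 to 44 bases before that of Errfi1, and in no other of the 7 genes. Of all 32851 RefSeq promoter windows of this length, 1.55% held it. The TATA box lay between -31 and -26 in Areg and between -28 and -23 in Errfi1, and 12.4% of all windows held one. GC boxes were found in Areg, Egfr, Errfi1, Lrig1 and Tgfa and in 32.7% of all windows. Errfi1 has another RefSeq start upstream, and none of these 3 motifs was in its window. The AP-1 motif TGANTCA (6.75% of windows), the EGR motif GCGTGGGCG (0.536%) and the CArG box (1.47%) matched none of the windows of the 7 genes. A match is a description of letters, and no binding was measured here.

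The time points were compared with an edgeR quasi-likelihood fit over all 9 libraries. With time point alone in the fit, 0 of the 9 ErbB genes that passed the filter were called at an adjusted p of 0.05 in any comparison. Across all tested genes, calls made up 0.0424% at 1 h against 0 h, 2.42% at 6 h against 0 h and 2.14% at 6 h against 1 h. At an unadjusted p under 0.05 there were 0, 0 and 1 of the 9 genes, the last being Hbegf, where the shares of all genes were 3.9%, 17.9% and 17.7%. DESeq2 without the block called 0, 0 and 1 genes, Hbegf again. Of all genes it tested, it called 51 higher and 21 lower of 21608 at 1 h against 0 h. At 6 h against 0 h these were 815 and 683 of 17350, and at 6 h against 1 h 829 and 596 of 17350. The ranges of CPM at the 2 time points overlapped for all 9 genes at 1 h and at 6 h against 0 h, and failed to overlap for 1 of 9, Hbegf, at 6 h against 1 h. Such gaps were seen in 8.24%, 25% and 22.2% of all tested genes.

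Libraries with the same number deviated together, and adding the number as a block made the differences within each number the basis of the test. With this replicate block, 3 of 9 genes were called higher (Egfr, Erbb2, Tgfa) and 3 lower (Hbegf, Areg, Errfi1) at 6 h against 0 h, where 17.4% and 17.5% of all tested genes were called higher and lower. Between 1 h and 6 h, 4 of 9 were called higher (Egfr, Erbb2, Erbb4, Tgfa) and 2 lower (Hbegf, Areg), against 18% and 17.5% of all genes. At 1 h against 0 h no gene of the 9 was called, against 1.36% higher and 2.14% lower among all genes. An unadjusted p under 0.05 was reached by 2 of the 9. Of all 18858 tested genes, 1562 reached it as higher and 1876 as lower. DESeq2 with the block called 0 of the 8 ErbB genes it tested, where 355 of 13738 genes were called higher and 563 lower. The median absolute log2 fold change of the 9 genes at 6 h against 0 h was 0.31, and that of all tested genes was 0.20. For 1 h against 0 h these medians were 0.09 and 0.11. The calls of 6 h against 0 h and of 6 h against 1 h share the 6 h libraries.

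**Figure D2:**
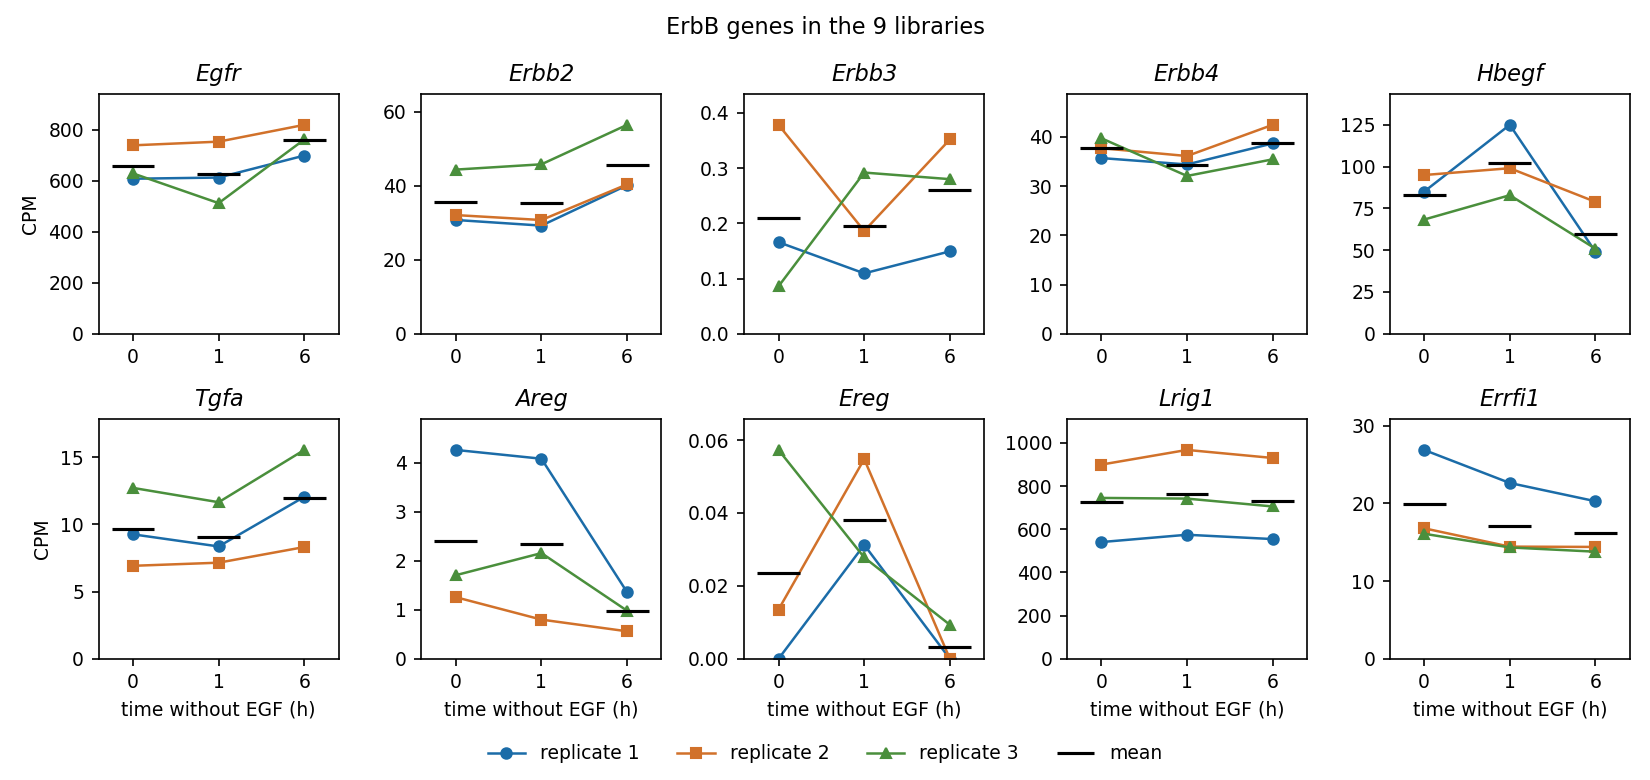
Scaled CPM of the 10 ErbB genes (linear axes from 0) against hours without EGF, with a symbol and a line for each replicate number and a black bar for the mean of each time point. The lines of Lrig1 and Tgfa keep apart by replicate number, and Egfr, Erbb2 and Tgfa end higher at 6 h than at 0 h in each of the 3 numbers.

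Egfr (ENSMUSG00000020122, chr11:16752203-16918158, plus strand), the receptor for EGF itself, remained abundant after EGF was taken away. Gene positions are those of GRCm38. It was read at 608, 739 and 629 CPM at 0 h in replicates 1, 2 and 3. The values were 613, 754 and 513 CPM at 1 h and 699, 820 and 763 CPM at 6 h. Each number was highest at 6 h, while the ranges at 0 h and 6 h overlapped. The mean was 15.4% higher at 6 h than at 0 h, with a log2 fold change of 0.21 ± 0.15 (SE) without the block (adjusted p = 0.537) and 0.21 ± 0.07 with it (adjusted p = 0.0392). This call was held in 4 of 9 fits that each left out 1 library. It was lost without replicate 1, 2 or 3 of 0 h or replicate 1 or 3 of 6 h, with an adjusted p of up to 0.242. Over these fits its log2 fold change ran from 0.12, without replicate 3 of 6 h, to 0.28, without replicate 2 of 6 h. Against 1 h the log2 fold change at 6 h was 0.28 ± 0.15 without the block (adjusted p = 0.374) and 0.29 ± 0.07 with it (adjusted p = 0.00751), and the call with the block held in 9 of 9 such fits. At 6 h against 0 h over all 9 libraries, DESeq2 with the block gave 0.21 ± 0.08 (adjusted p = 0.0217). With the block and trends with GC content and exon length taken out, edgeR gave 0.27 ± 0.05 (adjusted p = 0.00132).

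Erbb2 (ENSMUSG00000062312, chr11:98412470-98437716, plus strand), the receptor without a known ligand of its own and the preferred partner of the other 3, rose by a similar ratio in each number in the fit with the block. Levels were 30.8, 32.1 and 44.4 CPM at 0 h, 29.2, 30.7 and 45.8 CPM at 1 h, and 40.1, 40.4 and 56.5 CPM at 6 h. Replicate 3 was the highest library at every time point, and its 0 h value was above the 6 h values of replicates 1 and 2. Within the numbers, the ratio of 6 h to 0 h was 1.31, 1.26 and 1.27. The log2 fold change at 6 h against 0 h was 0.35 ± 0.22 without the block (adjusted p = 0.481) and 0.35 ± 0.05 with it (adjusted p = 0.000219), and it lay between 0.33 and 0.38 when single libraries were left out of the fit with the block. From 1 h to 6 h it was 0.38 ± 0.05 with the block (adjusted p = 0.000125). With the block kept and trends with GC content and exon length taken out, the values were smaller. They were 0.25 ± 0.05 at 6 h against 0 h (adjusted p = 0.00146) and 0.28 ± 0.05 from 1 h to 6 h (adjusted p = 0.000643).

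Erbb4 (ENSMUSG00000062209, chr1:68032186-69108059, minus strand), which binds neuregulins as well as some EGF-like ligands, varied least between libraries among the 9 tested genes. It was read at 35.7, 37.7 and 39.7 CPM at 0 h, 34.4, 36.1 and 32.1 CPM at 1 h, and 38.7, 42.5 and 35.5 CPM at 6 h. All 3 numbers were lower at 1 h than at 0 h, and 2 of 3 were higher at 6 h than at 0 h. With the block, the log2 fold change was -0.14 ± 0.07 at 1 h (adjusted p = 0.275) and 0.04 ± 0.07 at 6 h against 0 h (adjusted p = 0.690). Between 1 h and 6 h it was 0.18 ± 0.07 with the block (adjusted p = 0.0463). This call held in 2 of 9 fits with a library left out, those without replicate 3 of 0 h or replicate 3 of 6 h. It was lost in the other 7 (adjusted p up to 0.184), in DESeq2 with the block (adjusted p = 0.0535) and once trends with GC content and exon length were taken out (adjusted p = 0.0554).

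Erbb3 (ENSMUSG00000018166, chr10:128567523-128589652, minus strand), the neuregulin receptor with little kinase activity of its own, was close to the lower limit of these libraries. Counts ranged from 6 to 32 per library, and levels were 0.166, 0.378 and 0.0859 CPM at 0 h, 0.109, 0.186 and 0.292 CPM at 1 h, and 0.149, 0.352 and 0.280 CPM at 6 h. The replicate numbers moved in different directions, with 1 of 3 higher at 6 h than at 0 h. No difference was detectable at this depth, the log2 fold change at 6 h being 0.31 ± 0.43 with the block (adjusted p = 0.614). Erbb3 is known from the oligodendrocyte lineage, and with the block 5 of 6 markers of oligodendrocyte progenitors were called higher at 6 h than at 0 h, where 17.4% of all tested genes were. In the same fit 4 of 8 markers of neuroblasts and neurons were called higher and 0 lower, and 4 of 10 markers of neural stem and progenitor cells higher and 2 lower. Of all tested genes, 17.5% were called lower. Higher and lower calls were 2 and 1 of 6 for oligodendrocytes, 1 and 1 of 6 for astrocytes and 1 and 2 of 4 for pericytes. They were 0 and 2 of 5 for endothelial cells, 0 and 2 of 4 for ependymal cells and 0 and 1 of 6 for microglia. A link of these markers to Erbb3 was not tested. Among the oligodendrocyte progenitor markers, Cspg4 had a mean of 65.9 CPM at 0 h and 174 CPM at 6 h, while Sox10 stayed near 0 with means of 0.0893 and 0.210 CPM.

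**Figure D3:**
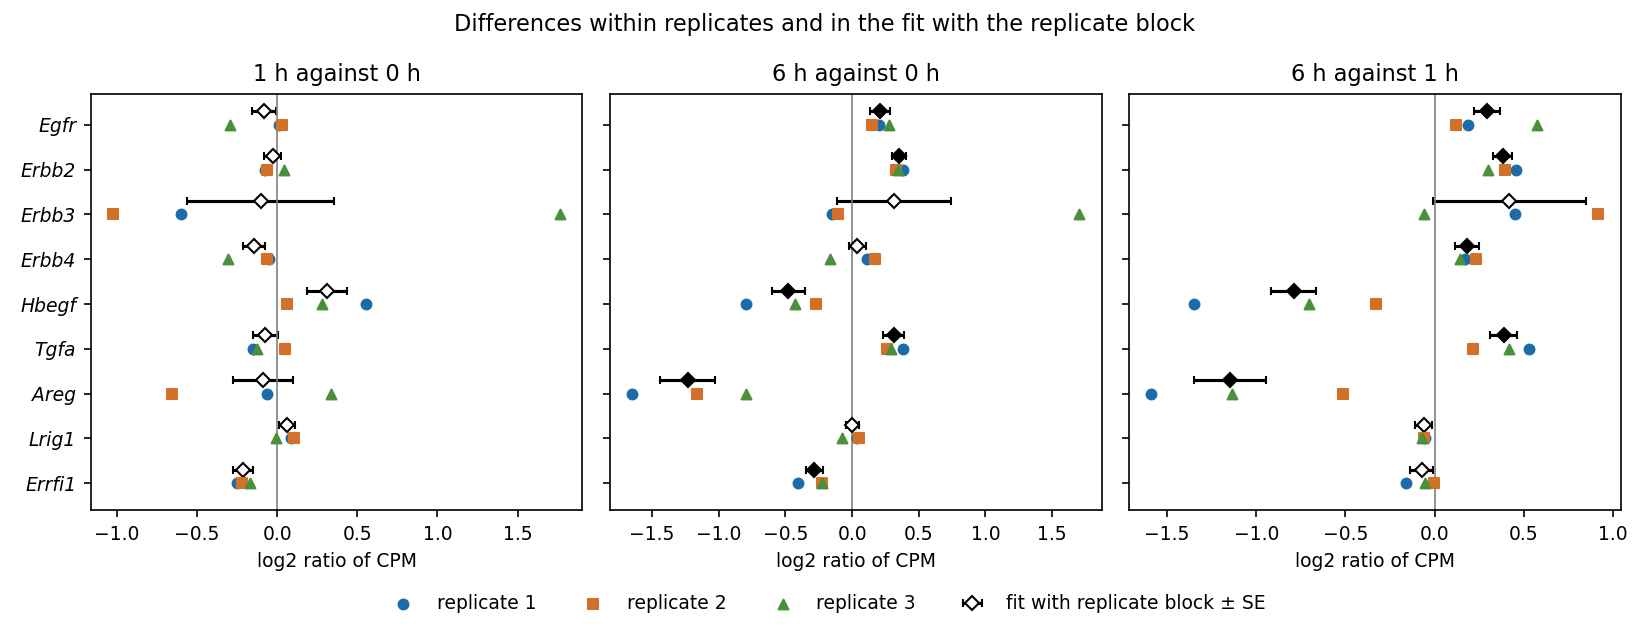
Log2 ratio of CPM for the 9 tested ErbB genes in the 3 comparisons, with a coloured symbol for each replicate number and a diamond with its SE for the fit with the replicate block, filled where the adjusted p was under 0.05. At 6 h against 0 h, Egfr, Erbb2 and Tgfa lie to the right of 0 and Hbegf, Areg and Errfi1 to the left in each of the 3 numbers.

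Hbegf (ENSMUSG00000024486, chr18:36504927-36515805, minus strand), a ligand of EGFR and ERBB4, was the most abundant of the ligands chosen here. Its levels were 85.0, 94.9 and 68.3 CPM at 0 h, 125, 99.0 and 82.9 CPM at 1 h, and 49.0, 78.9 and 50.8 CPM at 6 h. Every number was higher at 1 h than at 0 h and lowest at 6 h, and all 6 h libraries were below all 1 h libraries. The difference at 1 h against 0 h did not pass the test, with a log2 fold change of 0.31 ± 0.22 without the block (adjusted p = 1.00) and 0.31 ± 0.13 with it (adjusted p = 0.208). For 6 h against 0 h it was -0.47 ± 0.22 without the block (adjusted p = 0.321) and -0.48 ± 0.13 with it (adjusted p = 0.0103). The latter call was lost without replicate 1 of 6 h, where the log2 fold change was -0.28 (adjusted p = 0.0586), and in DESeq2 with the block (adjusted p = 0.0726).

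From 1 h to 6 h, Hbegf fell in DESeq2 and in both fits with the block, and missed the threshold in edgeR without the block. The mean went from 102 ± 21.2 CPM (SD) to 59.6 ± 16.7 CPM, with n = 3 for each. The log2 fold change was -0.78 ± 0.22 without the block, with an unadjusted p of 0.00771 and an adjusted p of 0.117 in edgeR. DESeq2 without the block called it (adjusted p = 0.0204). With the block in edgeR it was -0.79 ± 0.13 (adjusted p = 0.000413), called in 9 of 9 fits with a library left out.

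Tgfa (ENSMUSG00000029999, chr6:86195223-86275719, plus strand), a ligand that binds EGFR, ran opposite to Hbegf. It was read at 9.26, 6.92 and 12.7 CPM at 0 h, 8.36, 7.15 and 11.7 CPM at 1 h, and 12.1, 8.32 and 15.5 CPM at 6 h. The numbers kept their order at all time points, with replicate 3 highest and replicate 2 lowest, and each was highest at 6 h. The log2 fold change at 6 h against 0 h was 0.31 ± 0.30 without the block (adjusted p = 0.674) and 0.31 ± 0.08 with it (adjusted p = 0.00648). From 1 h to 6 h it was 0.39 ± 0.08 with the block (adjusted p = 0.00173). Both calls with the block held in 9 of 9 fits with a library left out. An antisense gene, Gm43917, covers 118 bases of the exons of Tgfa, and the strand setting of the counting is not given in the sources used here.

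Areg (ENSMUSG00000029378, chr5:91139599-91148432, plus strand), which encodes amphiregulin, another ligand of EGFR, had the largest fold differences of the 9 tested genes at 6 h, at a low level. Its values were 4.26, 1.26 and 1.70 CPM at 0 h, 4.08, 0.800 and 2.16 CPM at 1 h, and 1.36, 0.561 and 0.980 CPM at 6 h, from 51 to 308 counts per library. Replicate 1 was the highest library at each time point, and its 6 h value lay within the range of 0 h. The ratio of 6 h to 0 h was 0.319, 0.446 and 0.575 in the 3 numbers. The log2 fold change was -1.32 ± 0.66 without the block (adjusted p = 0.353) and -1.23 ± 0.20 with it (adjusted p = 0.000489). Between 1 h and 6 h it was -1.15 ± 0.20 with the block (adjusted p = 0.000850), while the change at 1 h against 0 h was -0.09 ± 0.19 (adjusted p = 0.852). Both calls with the block held in 9 of 9 fits with a library left out, and the log2 fold change at 6 h against 0 h then lay between -1.45 and -0.97.

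Ereg (ENSMUSG00000029377, chr5:91074622-91093646, plus strand), which encodes epiregulin and neighbours Areg, was nearly silent. The counts were 0, 1 and 4 at 0 h, 2, 5 and 2 at 1 h, and 0, 0 and 1 at 6 h. It did not pass the filter on low counts and is in neither of the fits above. With no filter and no block it was not called, with an adjusted p of 0.631 at 6 h against 0 h and 0.434 at 6 h against 1 h, and no fold change is given at this depth.

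Lrig1 (ENSMUSG00000030029, chr6:94604529-94700158, minus strand), a transmembrane protein that promotes removal of ErbB receptors from the cell surface, showed no detectable difference with time in edgeR with or without the block. It was read at 541, 900 and 745 CPM at 0 h, 575, 968 and 742 CPM at 1 h, and 555, 930 and 706 CPM at 6 h. Replicate 2 was highest and replicate 1 lowest at each time point, and the gap between them was larger than any difference between time points. The log2 fold change at 6 h against 0 h was 0.00 ± 0.26 without the block (adjusted p = 0.998) and 0.00 ± 0.05 with it (adjusted p = 0.981). At 1 h against 0 h it was 0.06 ± 0.05 and at 6 h against 1 h -0.06 ± 0.05 with the block (adjusted p = 0.536 and 0.365). Once trends with GC content and exon length were taken out and the block was kept, the difference between 1 h and 6 h was -0.16 ± 0.04 (adjusted p = 0.00820), a call that no other fit made. The exons of Slc25a26 on the other strand cover 144 bases of those of Lrig1.

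Errfi1 (ENSMUSG00000028967, chr4:150853919-150868892, plus strand), a cytoplasmic inhibitor that binds the EGFR kinase domain and is induced by receptor signalling, was lower after EGF withdrawal in all 3 numbers. The values were 26.9, 16.8 and 16.1 CPM at 0 h, 22.6, 14.4 and 14.3 CPM at 1 h, and 20.3, 14.4 and 13.8 CPM at 6 h. Replicate 1 at 6 h was still above replicates 2 and 3 at 0 h, so the ranges overlapped. The log2 fold change at 6 h against 0 h was -0.30 ± 0.27 without the block (adjusted p = 0.645) and -0.29 ± 0.06 with it (adjusted p = 0.00367), and the latter call held in 9 of 9 fits with a library left out. At 1 h it was -0.21 ± 0.06 with the block (adjusted p = 0.0964), and between 1 h and 6 h it was -0.07 ± 0.06 (adjusted p = 0.414). Of the 2 inhibitors, Errfi1 passed the test with the block at 6 h and Lrig1 did not, and the difference between them was not tested.

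The split of the variation between replicate number and time differed widely among the 9 genes. For Lrig1, 98.4% of the sum of squares of log2 CPM lay between the replicate numbers and 0.887% between time points. Errfi1 had 84.7% and 13.9%, Tgfa 78.7% and 19.3%, Erbb2 67.0% and 32.2%, and Areg 60.8% and 33.0%. Hbegf stood at the other end, with 20.5% between the numbers and 62.2% between time points, followed by Erbb4 with 20.5% and 47.5%. Egfr had 44.5% and 37.8%. Over all tested genes the medians were 48.9% and 26.9%. In Erbb3 the rest, neither number nor time, made up 52.2%, against 0.682% to 32.0% in the other 8 genes.

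**Figure D4:**
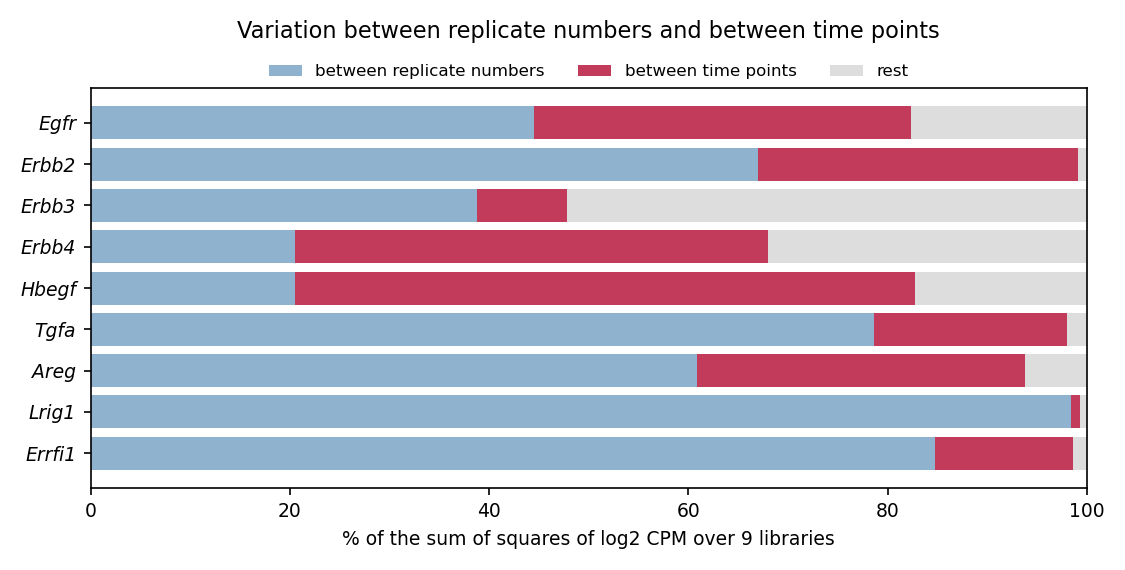
Share of the sum of squares of log2 CPM over the 9 libraries that lay between replicate numbers (blue), between time points (red) and in neither (grey), as a stacked bar in % for each of the 9 tested ErbB genes. The bar of Lrig1 is almost wholly blue (98.4%), and that of Hbegf has the longest red part (62.2%).

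Once the mean of each replicate number was subtracted, the courses of the genes could be set side by side over the 9 libraries, which share depth and time points. The highest positive Pearson correlations of log2 CPM were those of Erbb2 with Tgfa (0.94), Hbegf with Areg (0.87) and Egfr with Tgfa (0.84). Areg and Errfi1 had 0.76, and a link of this value to the motifs in both promoters was not tested. Hbegf, whose value with Areg was higher, had no promoter window to compare. Tgfa ran opposite to Hbegf (-0.96) and to Areg (-0.95). Among 10900 genes with a mean of at least 5 CPM, the 5 most like Egfr on this measure were Glg1 (0.993), Tia1 (0.991), Kif21b (0.990), Ube4b (0.988) and Pde10a (0.988). Those most like Lrig1 were Mrc2 (0.956), Dhx32 (0.932), Edem1 (0.930), Jade1 (0.929) and Pcnx4 (0.922). These values describe the 9 libraries and carry no test.

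Beyond the 10 genes, 86 others of the pathway were followed in 6 lists, and 85 of them were tested. With the block, 13 were called higher and 30 lower at 6 h against 0 h, 14 and 27 at 6 h against 1 h, and 4 and 7 at 1 h against 0 h. Of all tested genes the shares called higher and lower were 17.4% and 17.5%, 18% and 17.5%, and 1.36% and 2.14% in these comparisons. With time point alone the counts were 0 and 6, 0 and 3, and 1 and 0. Of these, Egr1, Egr2, Egr3, Jun and Spred1 were lower at 6 h against 0 h, Egr2, Egr3 and Fosb lower at 6 h against 1 h, and Fosb higher at 1 h. The other calls named in these lists were made with the block alone. The median log2 fold change of the 85 genes at 6 h against 0 h was -0.09 with the block, that of the 9 ErbB genes was 0.04 and that of all tested genes was -0.00.

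Transcripts of the other ligands were scarce, and none of the 6 tested was called in any comparison, with or without the block. Nrg1, a neuregulin, had a mean of 7.43 CPM at 0 h, 8.09 CPM at 1 h and 7.11 CPM at 6 h. Egf had 3.40, 3.05 and 3.24 CPM, and Nrg3 had 0 counts in all 9 libraries. Of the 8 genes of ligand processing, 2 were called higher and 2 lower at 6 h against 0 h with the block, beside 17.4% and 17.5% of all tested genes, so these counts do not set the list apart. Adam10, a sheddase of EGF family ligands, fell from 288 ± 22.5 to 237 ± 17.7 CPM (log2 fold change -0.28 ± 0.05, adjusted p = 0.000743), and Rhbdf1, an inactive rhomboid, fell from 67.3 ± 28.0 to 57.7 ± 24.2 CPM (adjusted p = 0.00485). Adam12, another protease of this family, rose from 477 ± 85.5 to 616 ± 108 CPM (0.37 ± 0.07, adjusted p = 0.00101). Adam17, the sheddase best known for Tgfa and Areg, had means of 122 CPM at 0 h and 114 CPM at 6 h and was not called.

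Among 15 genes of receptor turnover and inhibition, none was called higher and 5 were called lower at 6 h against 0 h with the block. The shares of all tested genes were 17.4% higher and 17.5% lower. Socs5, a suppressor that promotes loss of EGFR, fell from 83.2 ± 28.9 to 55.3 ± 14.5 CPM (log2 fold change -0.57 ± 0.05, adjusted p = 6.6e-06). Socs4, its relative, fell from 69.2 ± 3.23 to 54.7 ± 3.78 CPM, and both were already lower at 1 h with the block (adjusted p = 0.0143 for Socs4 and 0.0259 for Socs5). Sh3kbp1, an adaptor of receptor endocytosis, fell from 19.4 ± 4.65 to 15.6 ± 3.73 CPM (adjusted p = 0.00163). Lrig3, a relative of Lrig1, was lower at 6 h than at 1 h, at 9.20 ± 1.74 against 11.9 ± 1.52 CPM (adjusted p = 0.00251 with the block). Cbl, the main ubiquitin ligase of EGFR, was called higher at 6 h against 1 h, together with Cblb and the deubiquitinase Usp8, and not against 0 h. These were the 3 higher calls of this list at 6 h against 1 h, and 5 of its genes were called lower. Of all tested genes, 18% and 17.5% were called higher and lower in that comparison.

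Of 12 adaptors and regulators of RAS, 1 was called higher and 3 lower at 6 h against 0 h with the block, beside the same 17.4% and 17.5% of all tested genes, so the counts do not set this list apart. Ptpn11, the phosphatase SHP2, fell from 280 ± 7.17 to 242 ± 4.15 CPM, while the docking protein gene Gab2 rose from 81.3 ± 5.64 to 92.1 ± 10.1 CPM. In the same fit Sos1, an exchange factor for RAS, was lower at 1 h than at 0 h (-0.31 ± 0.07, adjusted p = 0.0205) and higher at 6 h than at 1 h (0.24 ± 0.07, adjusted p = 0.0130). Hras fell between 1 h and 6 h, from 67.6 ± 10.5 to 55.2 ± 1.11 CPM (adjusted p = 0.00988). Of 20 genes of the kinase cascades, 8 were called higher and 4 lower at 6 h against 0 h, again with the block. The shares of all tested genes were the same 17.4% and 17.5%. Pik3r1, a regulatory subunit of PI3K, rose from 252 ± 51.3 to 366 ± 66.3 CPM (0.54 ± 0.06, adjusted p = 1.33e-05). Stat3 fell from 239 ± 39.0 to 177 ± 19.6 CPM (-0.42 ± 0.05, adjusted p = 2.52e-05).

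The 24 target genes of ERK signalling held the largest differences of the pathway. With the block, 2 were called higher and 16 lower at 6 h against 0 h, beside 17.4% and 17.5% of all tested genes. The median log2 fold change of the 24 genes was -0.44. Without the block 0 of the 24 were called higher and 5 lower, where 2.42% of all tested genes were called in either direction. Egr2, an early response transcription factor, fell from 3.41 ± 0.786 to 0.383 ± 0.144 CPM (-3.13 ± 0.19 with the block, adjusted p = 1.78e-07). Jun, a subunit of AP-1, fell from 147 ± 29.0 to 76.2 ± 10.9 CPM, and was already at 78.2 ± 16.6 CPM at 1 h (adjusted p = 2.9e-06 at 1 h with the block, 0.438 without). The genes called higher were Etv4 and Etv5.

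Some of these targets peaked at 1 h. Fosb rose from 0.591 ± 0.170 to 4.14 ± 0.677 CPM (2.81 ± 0.19 in log2 with the block, and adjusted p = 0.0122 without it), and was back at 0.570 ± 0.0474 CPM at 6 h (adjusted p = 0.00348 against 1 h without the block). Egr3 went from 1.23 ± 0.406 to 4.55 ± 2.24 CPM at 1 h (adjusted p = 0.00155 with the block, 0.562 without) and to 0.0867 ± 0.0429 CPM at 6 h. Of the 9 tested ErbB genes, Hbegf and Lrig1 had their highest mean at 1 h, 23.6% and 4.52% above 0 h, and neither difference passed the test.

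**Figure D5:**
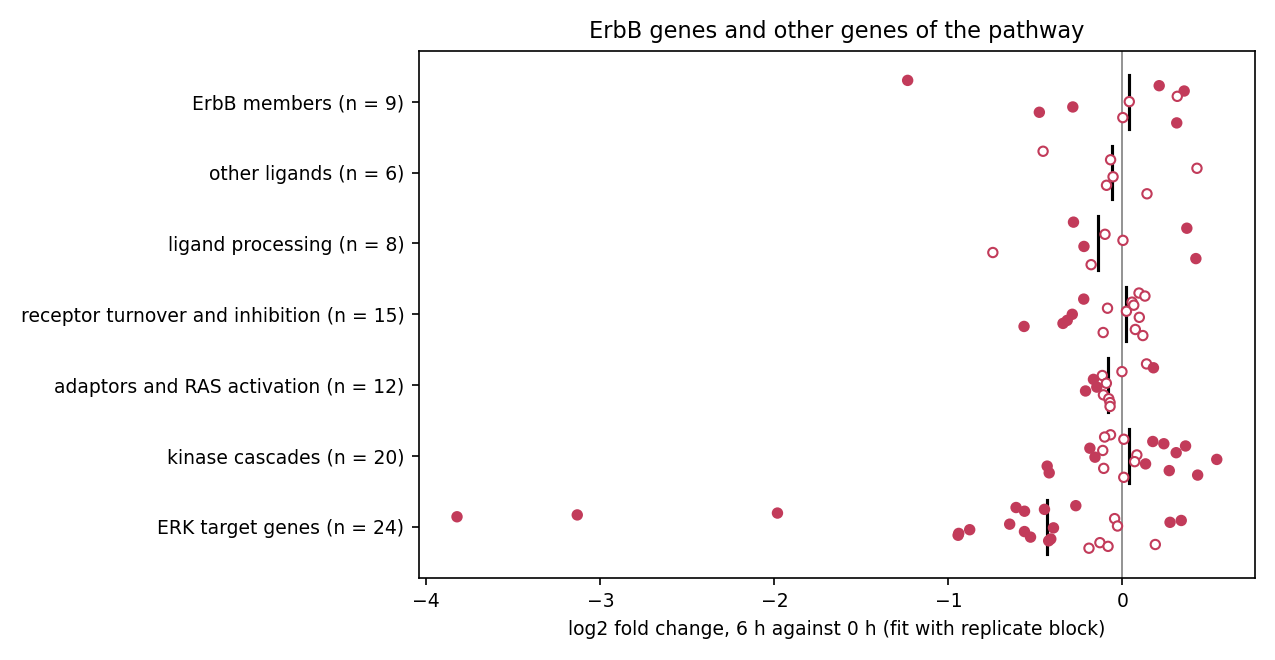
Log2 fold change at 6 h against 0 h from the fit with the replicate block, 1 point per gene, for the 9 ErbB genes and 6 lists of other pathway genes, filled where the adjusted p was under 0.05, with a black line at the median of each list. The ERK target genes reach from -3.82 (Egr3) to above 0, with a median of -0.44, and the ErbB genes reach from -1.23 (Areg) to 0.35 (Erbb2).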

How the data were processed

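RNA of NSC cultures was sequenced as 9 stranded mRNA libraries, 3 at each of 0, 1 and 6 h. The authors deposited raw counts of reads per Ensembl gene. The submitters' processing notes name STAR 2.5.3a, FastQC and DESeq2 1.22.1 and the build mm10 (GRCm38), and the strand setting of the counting is not given in the sources used here. Total counts were 65871454 to 105592597 per library. The values are whole numbers and no library matched another within sampling noise (chi-square per degree of freedom of at least 13.6). Positions and exon lengths are those of GENCODE M21 (48144 of 48526 identifiers matched), and promoter windows from RefSeq.

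Counts were fitted with the quasi-likelihood test of edgeR 4.0.16 (R 4.3.3, limma 3.58.1), TMM scaling (factors 0.972 to 1.02) and filterByExpr (minimum count 10, total 15) over all 9 libraries, which left 18858 genes. P-values are two-sided and adjusted by Benjamini-Hochberg over these genes, with a threshold of 0.05. CPM were computed from the scaled counts, and CPM per kb by dividing by the exon length. Log2 CPM used a prior count of 2. Depth limits the precision of genes with few counts, here Erbb3, Ereg and in part Areg.

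Replicate numbers come from the labels, and the sample titles mark the same sets of libraries with the letters B, C and D. After subtraction of time point means, the correlation of libraries was 0.733 to 0.800 in the 9 pairs with the same number and -0.462 to -0.314 in the 18 other pairs, so the numbers pair the samples, although the labels do not state what they share. The fit without the block was the main design, and the fit with the number as a block is given beside it. The biological coefficient of variation was 0.277 without and 0.0627 with the block.

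Alternatives were RLE scaling, library totals without a factor, no filter, a mean of at least 1 CPM, DESeq2 1.42.0, only the 6 libraries compared, the replicate block, taking out trends with GC content and exon length by splines with 4 degrees of freedom, and leaving out each library. The 10 genes, the lists of pathway genes and the markers were chosen with earlier results of these data known. All 10 genes are named. Of each pathway list, up to 3 called genes with the smallest adjusted p per comparison are named, and Egf, Nrg1, Nrg3, Adam17, Cbl, Cblb, Usp8, Egr1, Spred1, Etv4 and Etv5 were added after their values were seen. Some genes of these lists are counted and not reported here by name. Scripts were tested on simulated data. Python 3.11.15, matplotlib 3.10.9, numpy 2.4.6 and pandas 2.3.3 served for tables and figures.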

Additional observations from a re-analysis of the deposited data

How the results depend on the processing

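Without the block, 0 of the 9 ErbB genes tested were called in any comparison under RLE scaling, library totals, only the 6 libraries compared and removal of GC content and length trends, 0 of 10 with no filter (Ereg included) and 0 of 8 with a mean of at least 1 CPM (Erbb3 left out). In these settings 13606 to 31382 genes were tested in all, and 4 to 12 of them were called higher and 0 lower at 1 h. At 6 h against 0 h, 85 to 355 were called higher and 28 to 233 lower. At 6 h against 1 h, the ranges were 10 to 381 and 11 to 193. The replicate block moved the counts of ErbB genes. At 6 h against 0 h, genes called higher went from 0 to 3 with the block in edgeR, in DESeq2 and after removal of GC and length trends, and genes called lower from 0 to 3, 2 and 3. Over all tested genes, higher calls went from 276 of 18858 to 3282 of 18858, 2930 of 17997 and 3058 of 18779. Lower calls over all tested genes went from 180 to 3299, 3159 and 3732. At 6 h against 1 h, the ErbB genes called went from 0 to 4, 3 and 3 for higher and from 0 to 2, 2 and 3 for lower. DESeq2 without the block called 1 lower. Over all tested genes, higher calls went from 279 to 3401, 2960 and 3116, and lower calls from 125 to 3309, 3253 and 4133. No ErbB gene was called at 1 h under these settings. Without single libraries, the counts of ErbB genes in either direction stayed at 0 without the block. All tested genes then had 27 to 305 higher and 11 to 203 lower calls at 6 h against 0 h. They had 16 to 130 and 14 to 69 at 6 h against 1 h, and 1 to 7 and 0 at 1 h. With the replicate block the counts of ErbB genes were 0 to 1 higher and 0 lower at 1 h. They were 2 to 3 higher and 2 to 3 lower at 6 h against 0 h. At 6 h against 1 h they were 3 to 4 higher and 2 lower. The 1 call at 1 h was Hbegf without replicate 2 of 1 h (log2 fold change 0.48, adjusted p = 0.0443). Of 19188 to 19318 genes tested in all with the block, 126 to 325 were then called higher and 84 to 561 lower at 1 h. At 6 h against 0 h the ranges were 2203 to 3996 and 2147 to 4055, and at 6 h against 1 h 2699 to 3294 and 2443 to 3363.

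For the other pathway genes at 1 h against 0 h, the count of higher calls went from 1 to 4 with the block, 2 in DESeq2, 6 in DESeq2 with the block, 0 in the fit of 6 libraries and 6 with GC and length trends removed and the block, and lower calls from 0 to 7, 1, 6, 0 and 9. In the same order, higher calls over all tested genes went from 8 to 257, 51, 355, 4 and 311. Lower calls over all tested genes went from 0 to 404, 21, 563, 0 and 368. The genes tested in these 5 settings were 18858, 21608, 13738, 18190 and 18779. At 6 h against 0 h, higher calls of the other pathway genes went from 0 to 13 with the block, 13 in DESeq2 with the block and 15 with trends removed and the block. Lower calls went from 6 to 30, 29 and 32, and to 3 without a filter, 11 in DESeq2 and 2 in the fit of 6 libraries. Over all tested genes, lower calls went from 180 to 3299, 3159 and 3732, and to 50, 683 and 28. At 6 h against 1 h, higher calls of the other pathway genes went from 0 to 14, 13 and 13, and to 1 in DESeq2. Their lower calls went from 3 to 27, 27 and 32, to 12 in DESeq2 and to 7 with trends removed and no block. Over all tested genes, higher calls went from 279 to 3401, 2960 and 3116, and to 829 in DESeq2. Lower calls over all tested genes went from 125 to 3309, 3253 and 4133, to 596 and to 193. Without single libraries, the ranges for higher and lower calls of the other pathway genes were 0 to 1 and 0 at 1 h, 0 and 1 to 5 at 6 h against 0 h, and 0 and 3 to 4 at 6 h against 1 h. With the replicate block they were 2 to 5 and 2 to 9, 7 to 18 and 25 to 39, and 11 to 14 and 21 to 30. The counts over all tested genes moved as well, over the ranges given above for these fits. At 6 h against 0 h with the block, 3996 higher and 4055 lower of 19318 genes were called without replicate 3 of 1 h. Without replicate 2 of 0 h these were 2203 and 2147 of 19253.

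Lrig1 at 6 h against 0 h changed sign around 0, with a log2 fold change of -0.00153 in DESeq2, -0.00179 in DESeq2 with the block, -0.0827 with trends removed and -0.0800 with trends removed and the block. The other 8 genes kept their direction in every comparison under each setting except the removal of a library. With a library left out, with or without the block, log2 fold changes that passed 0 ranged at 1 h against 0 h from -0.23 to 0.056 for Egfr, -0.25 to 0.17 for Erbb2, -0.68 to 0.64 for Erbb3, -0.31 to 0.16 for Tgfa, -0.71 to 0.66 for Areg, -0.15 to 0.25 for Lrig1 and -0.47 to 0.059 for Errfi1. At 6 h against 0 h they ranged from -0.25 to 1.05 for Erbb3, -0.019 to 0.13 for Erbb4 and -0.20 to 0.19 for Lrig1, and at 6 h against 1 h from -0.024 to 0.99 for Erbb3, -0.27 to 0.15 for Lrig1 and -0.28 to 0.16 for Errfi1. The cause of these moves was not tested. Depth limits Erbb3 and Ereg, and 3 libraries per time point limit the precision of every value.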
